A study of Mus musculus with 9 samples.

Results

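The genes described here are the proteasome genes of the mouse count table, namely the rows whose names run from Psma to Psmg and go on with a number. The immunoproteasome subunits Psmb8, Psmb9 and Psmb10 and 3 names ending in -ps were left out, so that 50 of 56 matching names remained, of 56860 genes in all. They comprised 16 core subunits (8 alpha and 8 beta), 17 regulatory subunits (6 of the ATPase ring and 11 others of the base and lid) and 17 genes kept apart from both. Those 17 were 6 activator and inhibitor genes, 7 assembly chaperones, 2 genes named after a protein that they bind (Psmc3ip and Psme3ip1) and 2 pseudogenes by name (Psmb6-ps2 and Psmb7-ps2).

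The proteasome is the protease that degrades proteins tagged with ubiquitin. Its core particle is a barrel of alpha rings, which gate the entrance, around beta rings, which carry the cleavage sites. A regulatory particle recognises the tagged protein, unfolds it with a ring of ATPases and threads it into the core. Interferon-gamma induces replacement of the catalytic beta subunits by the immunoproteasome forms and induces the activator PA28. Together these shape the peptides shown on MHC class I. When proteasome activity is short, the transcription factor NRF1, encoded by Nfe2l1, is known to raise the genes of the core and regulatory subunits.

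RNA of mouse spleen cells labelled CD4+ T cells was sequenced in 3 groups of 3 libraries. The groups were control mice, mice labelled CIA and CIA mice that had been given luteolin, a plant flavone. RA and Th17 cells, helper T cells that make IL-17, are named in the series title. Strain, age, sex, the dose and timing of luteolin and what the control mice received are not given in the labels used here, nor do the labels say whether replicates were separate animals. The p-values below therefore measure the spread between these libraries, which may in part be technical and is pooled over the 3 groups.

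Library totals ranged from 31234177 to 41815573 counts. Levels are given as CPM (counts scaled to a common library size) after TMM scaling, whose factors lay between 0.95 and 1.02. Of all 19348 genes tested, 26.6% passed as higher and 24.5% as lower in CIA against control. Cd4, the marker of the labelled cell type, stood at 2.92 ± 0.639 CPM (SD, n = 3) in the control libraries, 128 ± 39.6 in CIA and 104 ± 4.57 with luteolin, so the control libraries carried little of the defining marker. Summed levels of 12 neutrophil markers were 2192 to 2549 CPM in control, 6955 to 11715 in CIA and 8791 to 9240 with luteolin, and those of 9 B cell markers were 2065 to 2160, 301 to 1786 and 423 to 527. Of the neutrophil markers, 5 passed as higher and 7 as lower in luteolin against CIA, beside 23.1% and 24.2% of all tested genes. Their log2 fold changes ran from -2.48 to 7.39, so the sum does not stand for each marker. In RNA from mixed cells, fewer cells of a type and less RNA per cell cannot be told apart.

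Since most subunit genes were higher together in the luteolin libraries, their promoters were searched for 2 motifs. The 150 bases before the annotated start are shown for 2 catalytic subunits that hold the first motif, for an alpha subunit that holds the second and for Psma5, which was far higher with luteolin and holds neither. RefSeq promoters of build GRCm38.p6, from 250 bases before to 50 bases after the start, were matched for 40 of the 50 genes. Both strands were searched for TGACNNNGC, the core of the antioxidant response element to which NRF1 and NRF2 bind, and for CCAAT, to which NF-Y binds. Capitals mark the motif, all sequences are read 5′ to 3′ on the strand of the gene, and the lines give Psmb5 (chr14:54617996-54618145, minus strand), Psmb6 (chr11:70525207-70525356, plus strand), Psma2 (chr13:14613092-14613241, plus strand) and Psma5 (chr3:108256776-108256925, plus strand).
Psmb5: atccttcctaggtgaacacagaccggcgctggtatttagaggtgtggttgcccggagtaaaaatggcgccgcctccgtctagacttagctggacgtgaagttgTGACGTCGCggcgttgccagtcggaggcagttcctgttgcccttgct
Psmb6: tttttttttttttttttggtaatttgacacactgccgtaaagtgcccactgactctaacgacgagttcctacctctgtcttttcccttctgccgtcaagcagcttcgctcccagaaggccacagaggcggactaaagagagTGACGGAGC
Psma2: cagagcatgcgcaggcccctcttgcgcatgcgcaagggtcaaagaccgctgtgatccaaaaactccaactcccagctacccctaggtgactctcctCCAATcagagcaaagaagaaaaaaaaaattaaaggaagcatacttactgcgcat
Psma5: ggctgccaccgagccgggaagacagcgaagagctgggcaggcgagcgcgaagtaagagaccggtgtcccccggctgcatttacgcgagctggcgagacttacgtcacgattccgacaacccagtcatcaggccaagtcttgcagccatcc
In Psmb5 the antioxidant core lay at positions -47 to -39 from the start, and in Psmb6 at -9 to -1. Psma2 carried CCAAT at -54 to -50, and Psma5 carried neither motif in its whole window. TGACNNNGC was found in 6 of the 40 genes (15.0%: Psmb5, Psmb6, Psmc6, Psmd12, Psmd9 and Psme4), against 13.99% of 27025 genes with a promoter. CCAAT was found in 15 of 40 (37.5%), against 41.1% of all genes. It was found in 7 of 12 core genes (58.3%), 4 of 14 regulatory genes (28.57%) and 4 of 14 genes kept apart (28.57%). The 7 core genes included Psmb11, which was not tested, and Psma1 and Psmb3, which passed in no comparison below. Whether either motif goes with the differences between groups was not tested. The motifs share no bases with each other in these windows. A match describes the letters and not a bound site.

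Of the 50 genes, 47 passed the filter on low counts. Psmb11, the beta subunit of thymic epithelium, had 10, 1 and 2 counts in the control libraries, 2, 2 and 4 in CIA and 2, 4 and 0 with luteolin. The pseudogenes Psmb6-ps2 and Psmb7-ps2 had at most 2 and 6 counts in a library. Psma8, the alpha subunit of the testis, passed the filter only through the luteolin libraries, where it was high, so it is described by its counts alone and the numbers of calls are given over the other 46 tested genes. Every other tested gene had at least 59 counts in each library.

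Levels per exonic length (RPKM, which is CPM per kilobase of exon, averaged over the 9 libraries) differed widely between subunits that sit in the particle in equal numbers. In the beta ring they ran from 4.52 for Psmb2 to 26.9 for Psmb4, 5.95-fold apart. In the ATPase ring they ran from 13.6 for Psmc2 to 185 for Psmc1, 13.6-fold apart. Among the other base and lid subunits the lowest was Psmd11 at 6.89 and the highest Psmd7 at 113. Psme1, the alpha chain of PA28, had the highest level of all 50 genes at 248. The length is that of all exons in the annotation, so a gene with long rare exons reads low on this scale.

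**Figure D1:**
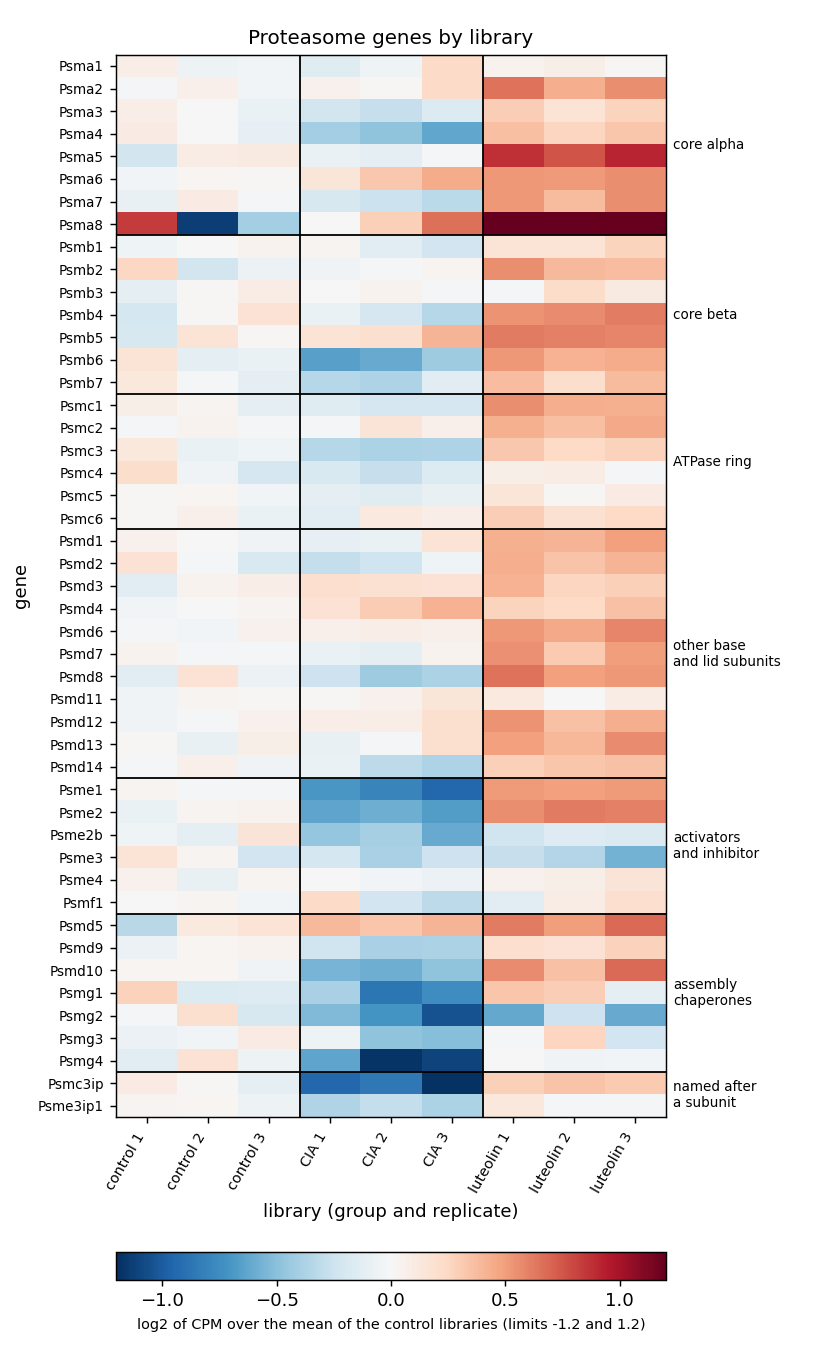
Level of each of the 47 tested proteasome genes (rows, grouped by role) in each library (columns), as the log2 of its CPM over the mean CPM of the control libraries; colours stop at -1.2 and 1.2, and Psma8 lies beyond the upper limit in the luteolin libraries. The luteolin columns are red in most rows of the core, ATPase and lid blocks, whereas blue in the CIA columns gathers in the activators, the chaperones and a part of the core.

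The levels in the luteolin group stood above those in both other groups for most subunits. In 31 of these 46 genes every luteolin library was above all 6 others, against 16.7% of all tested genes. These were 12 of 14 core genes, 13 of 17 regulatory genes and 6 of 15 of the genes kept apart. The CIA libraries were below all 6 others in 19 of 46 genes, against 14.9% of all tested genes, of which 5 were core, 5 regulatory and 9 kept apart. Summed over the core without Psma8, the libraries held 803 to 829 CPM in control, 713 to 736 in CIA and 1036 to 1099 with luteolin. The regulatory sum was 2115 to 2277 in control and 2029 to 2149 in CIA, which overlap, and 2728 to 2939 with luteolin.

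In luteolin against CIA, 32 of 46 genes passed as higher and none as lower, with 14 that did not pass (edgeR's quasi-likelihood test, Benjamini-Hochberg adjusted p under 0.05). Of all tested genes 23.1% passed as higher and 24.2% as lower. Without Psma8, 11 of 14 core genes (median log2 fold change 0.46) and 12 of 17 regulatory genes (median 0.44) were higher, together 74.2% of 31, beside a median of -0.04 over all tested genes. By DESeq2 34 of the genes were higher and 0 lower, and at an unadjusted p under 0.05 in edgeR 35 were higher and 0 lower. The difference was not even across the particle, since log2 fold changes of the core without Psma8 ran from 0.02 to 1.02 and those of the regulatory genes from -0.02 to 0.90.

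In CIA against control, 3 of 46 genes passed as higher (Psma6, Psmd4 and Psmd5) and 18 as lower. Of the 31 core and regulatory genes without Psma8, 2 were higher and 8 lower (25.8%), a share near the 24.5% of all tested genes. Their median was -0.05, beside -0.01 over all tested genes. The genes kept apart had more lower calls, 10 of 15, with a median of -0.48. Those 10 were Psme1, Psme2 and Psme2b, 5 of the assembly chaperones, Psmc3ip and Psme3ip1, and whether they differ from the subunits was not tested.

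In luteolin against control, 30 of 46 genes passed as higher and 2 as lower, against 24.2% and 20.8% of all tested genes. Of the 31 core and regulatory genes without Psma8, 25 were higher (80.65%) and 0 lower by edgeR, with 0 lower at an unadjusted p under 0.05 and 0 lower by DESeq2. The core without Psma8 had 11 of 14 higher and a median of 0.45, and the regulatory genes 14 of 17 and a median of 0.40. These comparisons share libraries, so agreement between them is not separate evidence. Calls were also counted across all 3 comparisons. The share of all tested genes with each pattern was not worked out, so these counts are a description only. There were 13 genes higher with luteolin against both other groups that did not pass in CIA against control. Another 12 were lower in CIA and higher with luteolin against both, and 7 passed in none of the main tests (Psma1, Psmb3, Psmc4, Psmd11, Psme4, Psmf1 and Psmg3).

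**Figure D2:**
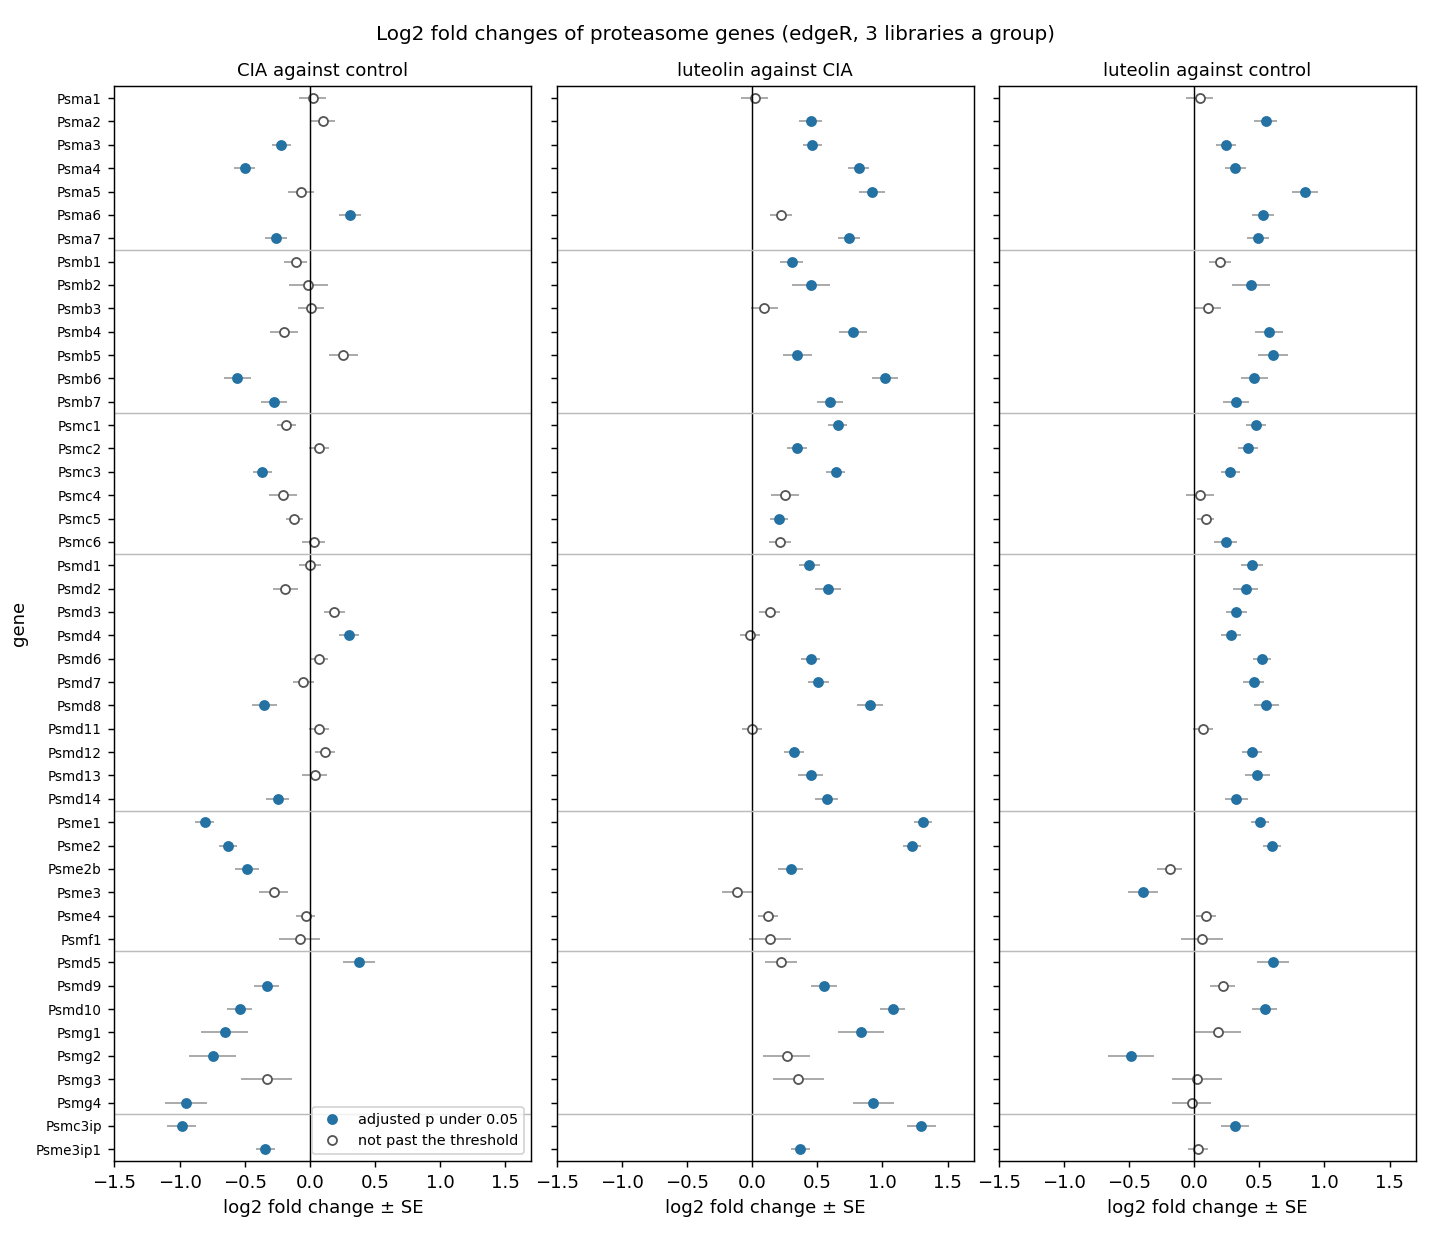
Log2 fold change (x axis, with SE as horizontal bars) of each tested proteasome gene other than Psma8 (y axis, grouped by role) in the 3 comparisons; filled points passed at an adjusted p under 0.05, open points did not. In luteolin against CIA 32 points are filled, all to the right of 0, whereas in CIA against control 18 filled points lie to the left and 3 to the right.

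The catalytic subunits stood in different orders across the groups. Psmb5 (chr14:54851576-54855479 in mm39, minus strand, 3 exons), which carries the chymotrypsin-like site, stood at 15.4, 19.6 and 17.8 CPM in control, 19.7, 20.04 and 23.4 in CIA and 27.1, 26.8 and 26.3 with luteolin. The 3 groups did not overlap, in the order control, CIA, luteolin, although the highest control and lowest CIA library were almost level. Its log2 fold change was 0.26 ± 0.11 (SE) in CIA against control (adjusted p = 0.0778), 0.35 ± 0.11 in luteolin against CIA (adjusted p = 0.0246) and 0.61 ± 0.11 in luteolin against control (adjusted p = 0.00144). The call against CIA was lost without CIA replicate 2 (0.32), luteolin replicate 1 (0.35) or luteolin replicate 3 (0.37), while a call of 0.34 in CIA against control appeared without control replicate 2. Psmb5 is less certain than its neighbours, since 22.2% of its 100-base stretches also occur in other genes, mainly Gm3375, and 12.1% of its exonic bases lie in Mir686 as well.

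Psmb6 (chr11:70416193-70418684 in mm39, plus strand), which carries the caspase-like site, stood at 29.96, 24.8 and 25.3 CPM in control, 17.04, 17.6 and 19.8 in CIA and 38.3, 35.7 and 36.5 with luteolin. Here the CIA libraries were the lowest 3 and the luteolin libraries the highest 3. It fell in CIA (log2 fold change -0.56 ± 0.10, adjusted p = 0.00129) and was 2.03-fold higher with luteolin than in CIA (log2 fold change 1.02 ± 0.10, adjusted p = 2.58e-05). With luteolin it was 1.38-fold above control (log2 fold change 0.46 ± 0.10, adjusted p = 0.00383).

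Psmb7 (chr2:38478048-38534099 in mm39, minus strand), with the trypsin-like site, gave 37.97, 34.3 and 32.1 CPM in control, 27.4, 26.97 and 31.9 in CIA and 45, 40.3 and 45.3 with luteolin. Its groups had the same order as those of Psmb6, and control and CIA lay almost next to each other. The fall in CIA (log2 fold change -0.28 ± 0.10, adjusted p = 0.0421) did not hold in 12 of 16 alternatives, among them each library left out other than control replicate 3 and CIA replicate 3 (-0.29 to -0.21). It was higher with luteolin than in CIA (0.60 ± 0.10, adjusted p = 0.000806) and than in control (0.32 ± 0.10, adjusted p = 0.0235). The last call was lost without control replicate 2 (0.31), control replicate 3 (0.27), luteolin replicate 1 (0.30) or luteolin replicate 3 (0.30), and 11.8% of its exonic bases are shared with Nek6 on the opposite strand.

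**Figure D3:**
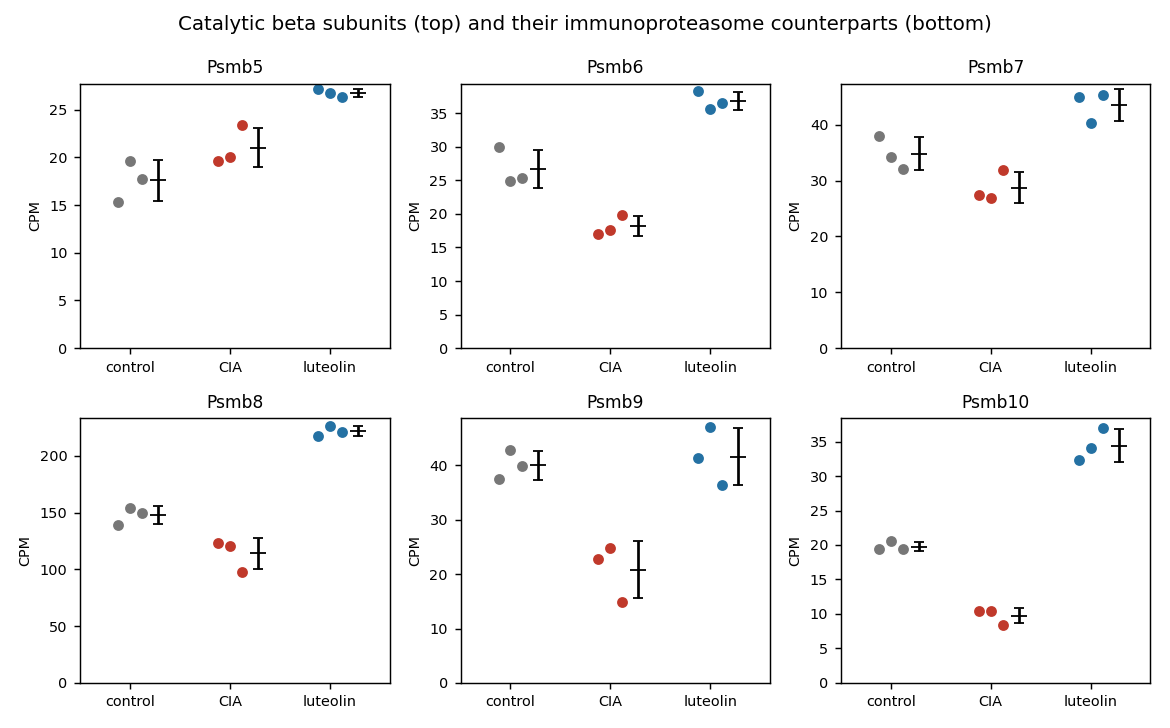
CPM (y axis, from 0) of the 3 catalytic beta subunits in the upper row and of the immunoproteasome subunits that take their places in the lower row, by group (x axis); each point is a library, and the bars give the mean and SD of 3 libraries. The lowest libraries of Psmb5 are in control, whereas the other 5 genes have theirs in CIA.

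The immunoproteasome counterparts, which are not counted among the 50 genes, all passed as lower when CIA was set against control and as higher when luteolin was set against CIA. Of all tested genes, 24.5% and 23.1% did so. Psmb8, the counterpart of Psmb5, had a mean of 148 ± 7.72 CPM in control, 114 ± 13.9 in CIA and 222 ± 4.44 with luteolin (SD, n = 3). Psmb9, the counterpart of Psmb6, had 40.04 ± 2.67, 20.8 ± 5.22 and 41.6 ± 5.304, and Psmb10, the counterpart of Psmb7, had 19.8 ± 0.644, 9.76 ± 1.15 and 34.4 ± 2.34. Against control, Psmb8 (0.59 ± 0.09) and Psmb10 (0.80 ± 0.10) were higher with luteolin, and Psmb9 at 0.06 ± 0.17 did not pass. The levels of Psmb8 are less certain, since 14.7% of its exonic bases are shared with Gm20496 on the opposite strand.

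Set beside each other per length, the immunoproteasome form and its partner kept different proportions in the groups. The ratio of Psmb10 to Psmb7 was 1.15 ± 0.10 in control, 0.69 ± 0.14 in CIA and 1.59 ± 0.13 with luteolin, with no overlap between groups. The ratio of Psmb8 to Psmb5 was 2.25 ± 0.16 in control, 1.46 ± 0.30 in CIA and 2.21 ± 0.06 with luteolin, so that CIA stood apart from both. The ratio of Psmb9 to Psmb6 was 0.78 ± 0.12, 0.60 ± 0.18 and 0.58 ± 0.08, and the groups overlapped. No test was run on these ratios, and those with Psmb8, Psmb5 or Psmb7 carry the overlaps named above.

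Among the alpha subunits, which form the gated outer rings, 5 of 7 were higher in luteolin against CIA and 6 of 7 in luteolin against control, beside 23.1% and 24.2% of all tested genes. Psma4, whose tail helps to close the gate, stood at 241, 224 and 210.1 CPM in control, 169.6, 161 and 146 in CIA and 288, 269 and 283 with luteolin. No group overlapped another, with CIA lowest and luteolin highest. Psma4 fell in CIA (-0.50 ± 0.08, adjusted p = 0.000636), was 1.76-fold higher with luteolin than in CIA (0.82 ± 0.08, adjusted p = 2.51e-05) and was higher than in control (0.32 ± 0.08, adjusted p = 0.0092). All 3 calls held in each of 16 alternatives.

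Psma5 (chr3:108164242-108187290 in mm39) had 38.97, 48.1 and 48.8 CPM in control, 42.9, 41.7 and 44.8 in CIA and 83.2, 76.3 and 85.4 with luteolin. Control and CIA overlapped, and the lowest luteolin library was above every other library by more than the whole range of those 6. The difference from CIA was 0.92 ± 0.10 (adjusted p = 4.15e-05) and from control 0.85 ± 0.10 (adjusted p = 8.28e-05), the second of which had the smallest p of the alpha subunits. Of its 100-base stretches 23.7% also occur in Gm8394 or Gm12989, so reads of those copies may be included.

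Psma6 went the other way from the called alpha subunits in CIA. Its libraries gave 77.4, 80.7 and 79.8 CPM in control, 87.6, 98.99 and 108 in CIA and 114, 113 and 117 with luteolin, 3 groups without overlap in rising order. It was higher in CIA (0.31 ± 0.08, adjusted p = 0.0114) and with luteolin against control (0.53 ± 0.09, adjusted p = 0.000629). The step from CIA to luteolin did not pass (0.22 ± 0.08, adjusted p = 0.0535). This step passed by DESeq2 (0.23), with library totals (0.26) and without CIA replicate 3 (0.29).

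Psma2, Psma3 and Psma7 were also higher with luteolin against both groups, with log2 fold changes of 0.45, 0.46 and 0.74 against CIA and 0.55, 0.24 and 0.49 against control. Psma1 did not pass in any comparison, at 0.02, 0.02 and 0.04 in the order CIA against control, luteolin against CIA and luteolin against control. The calls of Psma3 and Psma7 in CIA (-0.22 and -0.26) were each lost when any of several single libraries was left out, control replicate 2 and CIA replicate 2 in both cases (-0.23 and -0.19 for Psma3, -0.21 and -0.26 for Psma7), control replicate 1 for Psma3 (-0.19) and control replicate 3 and CIA replicate 3 for Psma7 (-0.26 and -0.22). The call of Psma3 against control was lost without control replicate 2 (0.24), control replicate 3 (0.21), luteolin replicate 1 (0.22) or luteolin replicate 3 (0.24). Of the 100-base stretches of Psma3, 13.4% also occur in Gm13835.

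Psma8, which takes the place of Psma7 in the testis form of the particle, was scarce. It had 12, 3 and 4 counts in control, 6, 7 and 8 in CIA and 54, 30 and 42 with luteolin. Control and CIA overlapped and each luteolin library was higher than both. As the filter admitted it through the luteolin libraries, no test of this difference is given. With luteolin its mean was 1.09 ± 0.295 CPM (SD, n = 3), beside 83.7 ± 5.497 CPM of Psma7.

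The other beta subunits, which shape the inner rings without a cleavage site, were Psmb1, Psmb2, Psmb3 and Psmb4. Psmb4 had 40.4, 47.3 and 52.9 CPM in control, 44.3, 40.8 and 37.1 in CIA and 68.3, 69.6 and 71.6 with luteolin, and control and CIA overlapped. It was 1.71-fold higher with luteolin than in CIA (0.78 ± 0.11, adjusted p = 0.000215) and 1.49-fold higher than in control (0.58 ± 0.11, adjusted p = 0.00151). In CIA against control it passed, as lower, only without control replicate 1 (-0.30). Psmb2 was higher against CIA (0.45) and against control (0.44), both calls being lost without luteolin replicate 1 (0.40 and 0.38), the first also without CIA replicate 2 (0.45) and the second without control replicate 2 (0.34), control replicate 3 (0.41) or luteolin replicate 3 (0.48). Psmb1 passed against CIA (0.31), a call lost without luteolin replicate 3 (0.28). Against control Psmb1 did not pass in the main test (0.20). It did pass there by DESeq2 (0.22), under the filter of 5 CPM (0.21) and with the 6 compared libraries alone (0.20). It also passed there without CIA replicate 1 (0.20) or 3 (0.20). Psmb3 passed in none (0.01, 0.10 and 0.11).

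In the ATPase ring, which unfolds the substrate, 4 of 6 genes were higher with luteolin against CIA and 4 of 6 against control. Over all tested genes the shares were 23.1% and 24.2%. Psmc1, an ATPase whose tail docks into the alpha ring, stood at 344, 335 and 301 CPM in control, 295, 285 and 285 in CIA and 483, 441 and 440.3 with luteolin. The groups did not overlap, and the luteolin libraries were far above the rest. It was higher than in CIA (0.66 ± 0.07, adjusted p = 5.56e-05) and than in control (0.48 ± 0.07, adjusted p = 0.000522). The difference between CIA and control (-0.18 ± 0.07) had an adjusted p of 0.0614, and it passed without control replicate 3 (-0.24) or CIA replicate 1 (-0.20).

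Psmc3, a second ATPase with such a tail, was the single gene of the ring that passed in CIA against control. It gave 319, 276 and 283 CPM in control, 230.4, 226 and 226 in CIA and 366, 346 and 354 with luteolin, with all CIA libraries below and all luteolin libraries above the control ones. It fell in CIA (-0.36 ± 0.07, adjusted p = 0.00209) and was higher with luteolin than in CIA (0.64 ± 0.07, adjusted p = 5.79e-05). The difference from control (0.28 ± 0.07, adjusted p = 0.00981) was lost without control replicate 2 (0.24).

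Psmc2 was higher with luteolin against CIA (0.35) and against control (0.41). Psmc5 was higher against CIA only (0.21), and this call was lost without CIA replicate 2 (0.20), luteolin replicate 1 (0.18) or luteolin replicate 3 (0.21). Psmc6 was higher in the main tests against control only (0.24). That call was lost when any single control library (0.20 to 0.28) or luteolin replicate 1 or 3 (0.22 and 0.25) was left out. It was also lost with replicate numbers as a block (0.24, adjusted p = 0.0545). Against CIA (0.21), Psmc6 passed by DESeq2 (0.23), with library totals (0.25) and without CIA replicate 3 (0.24) or luteolin replicate 2 (0.29). Psmc4 passed in none of the main tests, at -0.21, 0.25 and 0.05. Against CIA it passed with library totals (0.29), with the 6 compared libraries alone (0.29) and without control replicate 1 (0.26) or 3 (0.25). For CIA against control it passed, as lower, without control replicate 3 (-0.30).

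Of the 11 other base and lid subunits, 8 were higher in luteolin against CIA and 10 in luteolin against control. Of all tested genes, 23.1% and 24.2% were. Psmd8, a lid subunit needed late in its assembly, had 63.3, 78.05 and 65.7 CPM in control, 58.2, 51.3 and 53.1 in CIA and 108, 97.2 and 98.7 with luteolin. The CIA libraries were the lowest and the luteolin libraries the highest. It fell in CIA (-0.35 ± 0.10, adjusted p = 0.0127, lost without control replicate 2 at -0.26). It was 1.87-fold higher with luteolin than in CIA (0.90 ± 0.10, adjusted p = 4.39e-05) and higher than in control (0.55 ± 0.10, adjusted p = 0.00111).

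Psmd6, another lid subunit, had 71.7, 71.4 and 75.7 CPM in control, 76.3, 77.2 and 76.3 in CIA and 104, 99.8 and 109.7 with luteolin. Control and CIA lay close together without overlap and did not pass (0.07 ± 0.07), and luteolin was above both. Its difference from control (0.52 ± 0.07, adjusted p = 0.000224) had the smallest p of the base and lid subunits, and that from CIA was 0.45 ± 0.07 (adjusted p = 0.000503). Psmd14, the deubiquitinase that strips ubiquitin from the substrate, was higher than in CIA (0.57) and than in control (0.32). Its fall in CIA (-0.25) was lost when any library other than CIA replicate 1 was left out (-0.27 to -0.19).

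Psmd4, a ubiquitin receptor, was the single gene of these 11 that passed as higher in CIA. It had 143, 146 and 149.8 CPM in control, 165, 180.2 and 195 in CIA and 175, 172 and 186 with luteolin. CIA and luteolin overlapped and both were above control. It was higher in CIA (0.30 ± 0.08, adjusted p = 0.00871) and with luteolin against control (0.28 ± 0.08, adjusted p = 0.0126, lost without luteolin replicate 3 at 0.26), and between CIA and luteolin the difference was -0.02 ± 0.08 (adjusted p = 0.888).

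The scaffold subunits of the base, Psmd1 and Psmd2, were higher with luteolin against CIA (0.44 and 0.58) and against control (0.44 and 0.40). The lid subunits Psmd7, Psmd12 and Psmd13 were likewise higher against CIA (0.51, 0.32 and 0.45) and control (0.46, 0.44 and 0.49). Psmd13 shares 10.1% of its exonic bases with Sirt3 on the opposite strand. Psmd3, also of the lid, passed against control (0.32) and not against CIA (0.13). Psmd11, the lid subunit with the lowest level per length, passed in none (0.07, -0.00 and 0.07). Summed per length, the regulatory genes stood at 2.21 ± 0.08 times the core genes in control, 2.23 ± 0.01 in CIA and 2.08 ± 0.04 with luteolin, the 3 luteolin libraries being below the other 6.

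The activators that cap the core in place of the regulatory particle split into members that changed and members that did not pass. Psme1 and Psme2, the chains of PA28, lie next to each other on chromosome 14 (chr14:55815580-55818986 and chr14:55824898-55828570 in mm39). Psme1 stood at 560.1, 543 and 544 CPM in control, 339, 316 and 286 in CIA and 785, 771 and 782 with luteolin. Psme2 stood at 146, 157 and 158, 99.02, 102 and 96.6 and 226, 236 and 235 in the same order. In both genes the 3 groups were far apart relative to the spread within them, with CIA lowest and luteolin highest.

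Psme1 fell in CIA to 0.572 of the control level (-0.81 ± 0.07, adjusted p = 1.90e-05), was 2.48-fold higher with luteolin than in CIA (1.31 ± 0.07, adjusted p = 4.12e-07) and 1.42-fold above control (0.50 ± 0.07, adjusted p = 0.000292). Psme2 gave -0.63 ± 0.07 (adjusted p = 6.28e-05), 1.22 ± 0.07 (adjusted p = 4.76e-07) and 0.59 ± 0.07 (adjusted p = 7.66e-05) in the same 3 comparisons. All 6 calls held in each of 16 alternatives. Psme2b, a single-exon copy of Psme2, was lower in CIA (-0.48) and higher with luteolin against CIA (0.30, lost without luteolin replicate 3 at 0.30). Since 52.0% of its 100-base stretches also occur in Psme2, and 18.4% of those of Psme2 in Psme2b, the reads of these genes cannot be fully told apart.

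Psme3, the nuclear activator PA28 gamma, had 105, 95.8 and 80.01 CPM in control, 81, 71.6 and 79.1 in CIA and 77.1, 73.5 and 63.3 with luteolin. Neighbouring groups overlapped, and the luteolin libraries were all below the control ones. It was lower with luteolin against control (-0.39 ± 0.11, adjusted p = 0.0164), opposite to Psme1 and Psme2. The call was lost without control replicate 1 (-0.30), control replicate 2 (-0.38), luteolin replicate 2 (-0.36) or luteolin replicate 3 (-0.31), and in CIA against control (-0.28) a call appeared without control replicate 3 (-0.38) or CIA replicate 1 (-0.32). Per length, Psme1 stood at 7.92 ± 1.03 times Psme3 in control, 5.44 ± 0.54 in CIA and 14.7 ± 1.6 with luteolin, without overlap. Psme4, the activator PA200, and Psmf1, the inhibitor PI31, passed in no comparison (log2 fold changes between -0.08 and 0.14).

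The assembly chaperones were mostly lower in CIA, with 5 of 7 called lower, 1 higher and a median of -0.54. Of all tested genes, 24.5% passed as lower and 26.6% as higher in this comparison. Psmg4, which acts with Psmg3 when the alpha ring is built, had 8.78, 10.8 and 9.21 CPM in control, 6.199, 4.24 and 4.43 in CIA and 9.66, 9.34 and 9.41 with luteolin. The CIA libraries were below all others, while control and luteolin overlapped. It fell in CIA (-0.95 ± 0.16, adjusted p = 0.000704) and was higher with luteolin than in CIA (0.93 ± 0.16, adjusted p = 0.000802), and its difference from control was -0.02 ± 0.15 (adjusted p = 0.93).

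Psmg1 and Psmg2 work as a pair on the same ring, yet only Psmg1 passed as higher in luteolin against CIA, and the difference between the pair was not tested. Psmg2 had 5.903, 6.84 and 5.25 CPM in control, 4.14, 3.66 and 2.91 in CIA and 3.92, 5.03 and 3.95 with luteolin. The control libraries were the highest 3, and CIA and luteolin overlapped. It was lower in CIA (-0.75 ± 0.18, adjusted p = 0.00571) and with luteolin against control (-0.48 ± 0.18, adjusted p = 0.0456), the second call being lost in 8 of 16 alternatives, among them without control replicate 1 (-0.49) or 2 (-0.38), CIA replicate 2 (-0.48) and any luteolin library (-0.55 to -0.41). Psmg1 gave -0.65 in CIA against control, not called without control replicate 1 (-0.50), and 0.84 in luteolin against CIA. Psmg3 passed in none (-0.33, 0.35 and 0.02).

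The chaperones of the ATPase ring also went separate ways. Psmd10, known as gankyrin, stood at 33.6, 33.7 and 32.2 CPM in control, 22.6, 22.1 and 23.8 in CIA and 49.2, 42.3 and 53.3 with luteolin, with CIA below and luteolin above every control library. It fell in CIA (-0.54 ± 0.10, adjusted p = 0.00108), was 2.12-fold higher with luteolin than in CIA (1.08 ± 0.10, adjusted p = 1.14e-05) and higher than in control (0.54 ± 0.10, adjusted p = 0.00111). Psmd9 was lower in CIA (-0.33, lost without control replicate 2 at -0.33 or CIA replicate 2 at -0.31) and higher with luteolin against CIA (0.55), and 23.9% of its 100-base stretches also occur in Gm26745.

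Psmd5 was the chaperone that was higher in CIA. It gave 26.6, 36.1 and 37.4 CPM in control, 43.8, 42.1 and 44.2 in CIA and 51.4, 47.1 and 53.6 with luteolin. Control replicate 1 was lowest by a wide margin, and the groups did not overlap. Its call in CIA (0.38 ± 0.12, adjusted p = 0.0245) was lost without that library (0.23). The difference between luteolin and control (0.60 ± 0.12, adjusted p = 0.0025) kept its call in each of 16 alternatives. A gene model on the opposite strand shares 15.3% of its exonic bases.

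The genes named after a subunit were both lower in CIA and higher with luteolin against CIA. Psmc3ip, which acts in meiotic recombination and homologous repair rather than in the proteasome, had 18.8, 17.6 and 16.1 CPM in control, 9.15, 9.68 and 7.71 in CIA and 21.4, 22.1 and 21.8 with luteolin. Its CIA libraries were the lowest 3 and its luteolin libraries the highest 3. It fell in CIA (-0.98 ± 0.11, adjusted p = 7.76e-05) and was 2.46-fold higher with luteolin than in CIA (1.30 ± 0.11, adjusted p = 8.19e-06). The smaller difference from control (0.31 ± 0.11, adjusted p = 0.0349) was lost without any 1 of control replicates 2 and 3 (0.32 and 0.26) and the luteolin libraries (0.32 to 0.36), and 21.2% of its exonic bases overlap Mlx on the opposite strand. Psme3ip1, which binds PA28 gamma, stood at -0.34 for CIA over control and 0.37 for luteolin over CIA.

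The sums of dividing cell and macrophage markers stood in the order of the core sum, with CIA lowest and luteolin highest. Those of the other marker lists did not. The part of any of these cells or states in the results was not tested. All 12 markers of dividing cells were higher in luteolin against CIA and 11 of 12 were lower in CIA against control. Over all tested genes those shares were 23.1% and 24.5%. The summed level of these markers was 1404 to 1429 CPM in control, 490 to 612 in CIA and 2359 to 2421 with luteolin, the order also seen in the core sum. All 12 macrophage markers were higher in luteolin against CIA, beside the same 23.1%. Their sum was 271 to 367 CPM in control, 168 to 218 in CIA and 661 to 771 with luteolin. The T cell sum went in another order, with 231 to 256 CPM in control, 437 to 683 in CIA and 444 to 475 with luteolin. No marker of these lists was at 0 in all libraries.

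**Figure D4:**
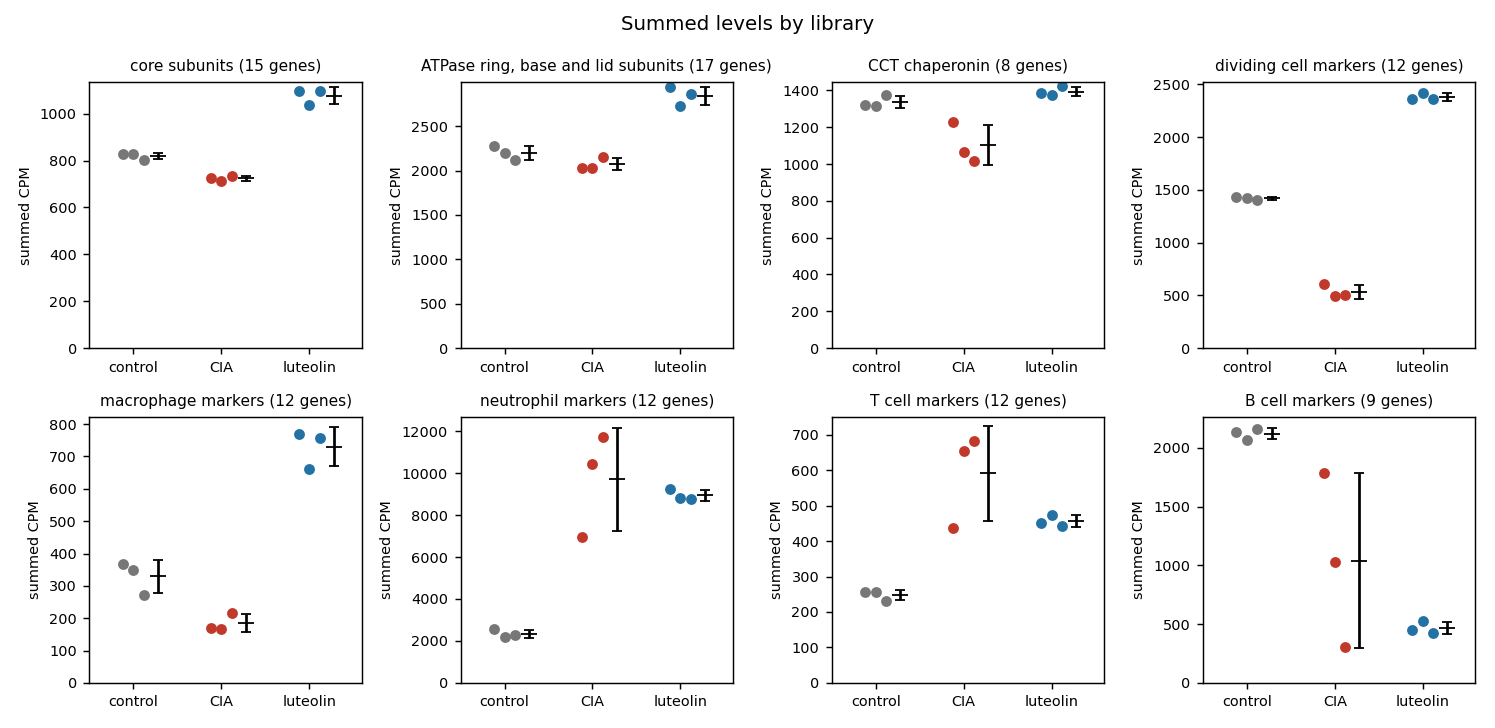
Summed CPM (y axes, from 0, each panel on its own scale) of the core and regulatory subunits, the CCT chaperonin and 5 sets of cell markers by group (x axis); each point is a library, and the bars give the mean and SD of 3 libraries. The core and regulatory sums are highest with luteolin, as are the sums of dividing cell and macrophage markers, whereas the T cell and neutrophil sums are lowest in control.

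Other large complexes of the same cells were set beside the proteasome. The COP9 signalosome, a relative of the lid, had 3 of 9 genes lower in CIA (33.3%, beside 24.5% of all tested genes) and 3 higher in luteolin against CIA (33.3%, beside 23.1%). In luteolin against control 1 was higher (11.1%, beside 24.2%; Cops6, 0.28, lost without control replicate 1 at 0.26, control replicate 2 at 0.25 or luteolin replicate 3 at 0.24). Cops5, one of the 3 genes higher against CIA (0.26), lost its call when any library other than control replicate 1 and luteolin replicate 1 was left out (0.24 to 0.27). Of the genes lower in CIA, Cops7a (-0.56) kept its call with any library left out, while Cops3 (-0.37) and Cops7b (-0.32) lost theirs without CIA replicate 3 (-0.22 and -0.28) and without control replicates 2 and 3 in turn (-0.39 to -0.29), and Cops3 also without any luteolin library (-0.37 to -0.36). The CCT chaperonin, which folds actin and tubulin, had 5 of 8 lower in CIA (62.5%) and 6 higher in luteolin against CIA (75.0%). Cct4 had the largest fall in CIA (-0.53), while Cct6a (0.66) and Tcp1 (0.52) were the furthest above CIA with luteolin. Cct2, Cct3 and Cct5 lost the call against CIA without CIA replicate 2 (0.21, 0.19 and 0.19), which leaves 3, and likewise without CIA replicate 3 (0.16, 0.20 and 0.19), luteolin replicate 1 (0.25, 0.24 and 0.23), luteolin replicate 3 (0.21, 0.24 and 0.23) or control replicate 2 (0.23, 0.24 and 0.24). Against control 0 of its genes passed as higher with luteolin by edgeR, 1 did at an unadjusted p under 0.05, 1 by DESeq2, 2 without CIA replicate 1, 1 without CIA replicate 3 and 4 with the 6 compared libraries fitted alone, and 1 was lower (Cct4, -0.29, lost when any control or luteolin library or CIA replicate 2 was left out, at -0.33 to -0.24). Its sum was 1317 to 1374 CPM in control and 1373 to 1422 with luteolin. Whether the proteasome differs from these complexes was not tested.

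Calls among partners of the proteasome ran in both directions, at shares near or below those of all tested genes. Of 22 genes listed, 21 were in the table, of which 5 were higher (23.8%, beside 23.1%) and 5 lower (23.8%, beside 24.2%) in luteolin against CIA, and 4 higher (19.05%, beside 24.2%) and 2 lower (9.52%, beside 20.8%) against control. The 5 lower calls became 3 without control replicate 2 or luteolin replicate 1 or 2. Those lost were the calls of Nploc4, a cofactor of Vcp, at -0.24, -0.26 and -0.17 in the same order, and of Zfand5, which binds the particle, at -0.26, -0.19 and -0.22. Against control, the 4 higher calls became 7 with the 6 compared libraries fitted alone, and the lower call of Zfand5 (-0.26) was lost without any control library (-0.27 to -0.25) or luteolin replicate 1 or 2 (-0.19 and -0.21). Pomp, the factor that matures the core, was higher with luteolin against CIA (0.60 ± 0.09, adjusted p = 0.000337) and control (0.45 ± 0.09, adjusted p = 0.00215), as was Sem1, a small lid subunit whose name the rule does not match (0.46, lost without luteolin replicate 1 at 0.42, and 0.55). Vcp, the ATPase that extracts ubiquitin-tagged proteins from complexes, was higher against both as well (0.36 and 0.31). Usp14, a deubiquitinase bound to the base, fell in CIA (-0.77) and was higher with luteolin against CIA (0.73), whereas Uchl5, another deubiquitinase of the particle, was higher in CIA (0.59) and with luteolin against control (0.66).

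Ubqln1, which carries ubiquitin-tagged proteins to the particle, was lower with luteolin against both groups. It had 106, 103 and 101 CPM in control, 98.9, 95.3 and 86.1 in CIA and 59.2, 33.1 and 32.96 with luteolin, the first luteolin library lying nearer to the rest. Its log2 fold change was -1.16 ± 0.19 against CIA (adjusted p = 0.000736) and -1.31 ± 0.19 against control (adjusted p = 0.000398). Ddi2, the protease that releases active NRF1, went from 127 ± 5.32 CPM in control to 273 ± 63.04 in CIA and 144 ± 2.97 with luteolin (SD, n = 3), higher in CIA (1.11 ± 0.14, adjusted p = 0.000133) and lower with luteolin against CIA (-0.92 ± 0.14, adjusted p = 0.000334). Nfe2l1 itself, which encodes NRF1, did not pass in any comparison (0.11, -0.14 and -0.03), and Nfe2l2, which encodes NRF2, was higher in CIA (0.48, not called at 0.48 without control replicate 1 or 2) and did not pass with luteolin.

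The ubiquitin genes and the enzymes that activate ubiquitin changed in both directions. Uba1, Uba6 and Ubb were higher in CIA (0.32, 0.31 and 0.35), and these calls were lost without control replicate 1 (0.27, 0.26 and 0.31). The calls of Uba1 and Uba6 were also lost without control replicate 2 (0.29 and 0.33), and that of Uba6 without CIA replicate 3 (0.25). Uba1, the main activating enzyme, was higher with luteolin against CIA (0.31, lost without CIA replicate 2 at 0.27 or luteolin replicate 1 at 0.25) and control (0.63), and Uba6, the other activating enzyme, was lower against both (-0.72 and -0.40, the second lost without luteolin replicate 2 at -0.34). Ubb, a polyubiquitin gene, was also higher with luteolin against control (0.42). Rps27a, which encodes ubiquitin fused to a ribosomal protein, had 107 ± 8.14 CPM in control, 59.1 ± 10.95 in CIA and 71.4 ± 4.77 with luteolin (SD, n = 3). Its level fell in CIA (-0.86) and was lower with luteolin against control (-0.59), and its difference between luteolin and CIA (0.27) did not pass.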

How the data were processed

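RNA-seq counts of 9 mouse libraries in 3 groups of 3 were analysed, with groups taken from the labels. The deposited values are raw counts per gene, which the authors made by trimming with Trimmomatic 0.36 (per the submitters' processing notes), mapping with a program written as STRA and counting exonic reads with featureCounts of Subread 1.5.1 (per the labels' protocols). The notes give build mm39, whereas the protocol names CHOK1GS. The strand setting, the treatment of reads on several genes and the annotation release are not given in the sources used here, so overlapping or copied genes are named as uncertain.

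The counts were tested in R 4.3.3 with edgeR 4.0.16 (filterByExpr, TMM, glmQLFit and glmQLFTest, 2-sided, 1 term per group over all 9 libraries, Benjamini-Hochberg over 19348 genes, threshold 0.05). The model was run on counts simulated from its own estimates, for genes that had passed the filter. That run used the same spread in all groups, so it checks neither the filter nor unequal spread. The standard error of a log2 fold change is its size over the root of the F statistic. Levels per length are TMM-scaled CPM over the table's exonic length. With 31234177 counts or more in a library, every tested proteasome gene other than Psma8 had at least 59 counts in each.

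Full statistics were given, in each role and comparison, to the called gene with the largest rise, the largest fall and the smallest p. They were also given to the catalytic subunits and to members against their class. Of each further list, up to 4 genes with the smallest p were marked for naming. Not all of these are named, and many are given by their log2 fold change alone. Genes and lists were chosen with earlier results of these data known. A gene of the ubiquitin list is not reported here. Psma8, which its luteolin counts had carried past the filter, was left out of the calls given in the report. Psmb4 and Psma7 beside Psma8 were added after their values were seen. Alternatives were DESeq2 1.42.0, RLE factors, library totals, no filter, a filter of 5 CPM in 3 libraries, the 6 compared libraries alone, the replicate number as a block, and each library left out.

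Same-numbered libraries of control and luteolin deviated together (correlation 0.14 to 0.30 in all 3 pairs), and differently numbered ones gave -0.257 to 0.0449. The labels name no pairs, so whether these libraries are paired is not known, and the main tests used no block. For CIA the same-number correlations were 0.03 to 0.17 with control and -0.13 to 0.43 with luteolin. CIA replicate 1 and luteolin replicate 2, with different numbers, reached 0.378. No 2 replicates were the same library, as their chi-square per degree of freedom was at least 5.51. It was 32.2 to 114 for pairs of CIA libraries and 5.51 to 16.1 for pairs within the other groups. The test used 1 estimate of the spread per gene for all 3 groups, so p-values against CIA lean in part on the tighter groups.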

Additional observations from a re-analysis of the deposited data

How the results depend on the processing

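No call changed direction under any of the 16 alternatives. Without Psma8, 27 of 32 higher calls with luteolin against CIA and 23 of 30 against control held in every alternative, and in CIA against control 2 of 3 higher and 11 of 18 lower calls did. Under a filter of 5 CPM, 5 genes were called higher in CIA against control instead of 3. Lower calls in luteolin against control numbered 2, but 1 with library totals, 1 without a filter and 0 to 2 with a library left out. With a library left out, the median of the core genes, here with Psma8, was 0.44 to 0.56 in luteolin against CIA and 0.41 to 0.54 in luteolin against control, and that of the regulatory genes was -0.085 to 0.042 in CIA against control and 0.36 to 0.48 in luteolin against control. The causes of these shifts were not tested. With the replicate number as a block, and without Psma8, luteolin against control gave 29 higher and 2 lower calls. CIA against control gave 3 and 20, and luteolin against CIA gave 33 and 0. Among the proteasome genes the block ended the call of Psmc6 in luteolin against control. It gave calls to Psmc1 (-0.18, adjusted p = 0.0453) and Psme3 (-0.27, adjusted p = 0.0418) in CIA against control. In luteolin against CIA it gave a call to Psma6 (0.22, adjusted p = 0.0448), and the labels name no pairs for either comparison. In the further lists it ended the calls of Cops3 in CIA against control (-0.37, adjusted p = 0.0612) and of Cct2 (0.22, adjusted p = 0.0560) and Cops5 (0.26, adjusted p = 0.0698) in luteolin against CIA. Scaling moved the median of all genes by less than 0.1 on the log2 scale. Depth limits Psma8, Psmb11 and the pseudogenes, where few counts were made.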
